A study of Rattus norvegicus with 8 samples.

Results

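Smooth muscle contractile genes of peritubular myoid cells and genes of pericytes were examined in RNA from rat testis cells sorted for CD9. The set held 10 genes chosen by name: the actins Acta2 and Actg2, the myosin heavy chain Myh11, the myosin kinase Mylk, the tropomyosin Tpm2, the actin binders Tagln and Cnn1, the intermediate filament gene Des, the crosslinker Actn1 and the proteoglycan Cspg4. Array probes were assigned to them by accession through RefSeq symbols, which gave 13 probes for the 10 genes out of 15154 named genes on the array. After a filter on dim probes 9 of the 10 members stood among the 10236 genes tested, and Cnn1 did not. All 9 were well above background on all 8 arrays.

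The samples were CD9-positive cells isolated by flow sorting from testes of Sprague-Dawley rats of 21 months (aged, 4 arrays) and of 4 months (young, 4 arrays). Rats of both ages carried a green fluorescent protein transgene specific to germ cells, whose promoter the labels do not name, and every array was labelled with Cy3 from 18 ng of total RNA. CD9 is a membrane tetraspanin found on spermatogonia and also on other cell types, and whether GFP was used in the sort is not stated. The labels do not say that the arrays came from separate animals, so p-values reflect only how these samples vary, and that variation may be technical.

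Peritubular myoid cells are the contractile cells that wrap the seminiferous tubule, move its fluid and sperm, and lay down part of its basement membrane. They contract as smooth muscle does: calcium and calmodulin activate the myosin light chain kinase encoded by Mylk, which lets the smooth muscle myosin heavy chain Myh11 pull on filaments of the actins Acta2 and Actg2. Pericytes, the mural cells of small vessels, share much of this machinery and carry the proteoglycan Cspg4, also called NG2. Neither cell type belongs to the germ line. In RNA from a mixed sort, fewer cells of a type and less RNA per cell cannot be told apart.

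Levels are log2 processed signals minus the 75th percentile of the same array, and changes are aged minus young. The 75th percentile lay at 331 to 524 intensity units on the aged arrays and at 326 to 503 on the young arrays, and no spot was saturated. The 8 arrays lay on 1 slide and were read in 1 scan, and each age group filled its own row of the slide, so position on the slide and age cannot be told apart. Young replicate 1 stood apart from the other young arrays: its deviation from the young mean correlated at 0.69 across genes with the deviation of aged replicate 2 from the aged mean. This was the largest value over all pairs of an aged and a young array. Aged replicate 2 correlated at −0.58 and −0.66 with young replicates 3 and 4, and deviations within a group are tied to each other. Genes are not independent replicates, and these values are a description. Results that rest on young replicate 1 are given below with and without it.

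All 9 tested members had lower values in aged than in young cells, with changes of −2.18 to −1.08 and a median of −1.68, against a median of 0.11 over all genes tested. Of all genes tested 36.6% had lower values, a share to set beside the counts of lower values in the lists below. In limma's test (Benjamini-Hochberg adjusted p under 0.05 over all genes) 2 of the 9 passed as lower, Cspg4 and Actn1. Over all genes 0.655% were called in either direction and 0.156% as lower. The other 7 members had adjusted p-values of 0.0802 to 0.111 and unadjusted p-values of 0.00808 to 0.0221. Of the 10236 genes tested, 3217 had an unadjusted p under 0.05 in limma. Young replicates 2 to 4 lay above all aged arrays in 9 of 9 members, while young replicate 1 lay within the range of the aged arrays in 7 members and above it in 2, the 2 that passed. Young replicate 1 was set aside here with its values known. The share of all genes with such a layout was not counted, so the 9 of 9 is a description only.

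**Figure D1:**
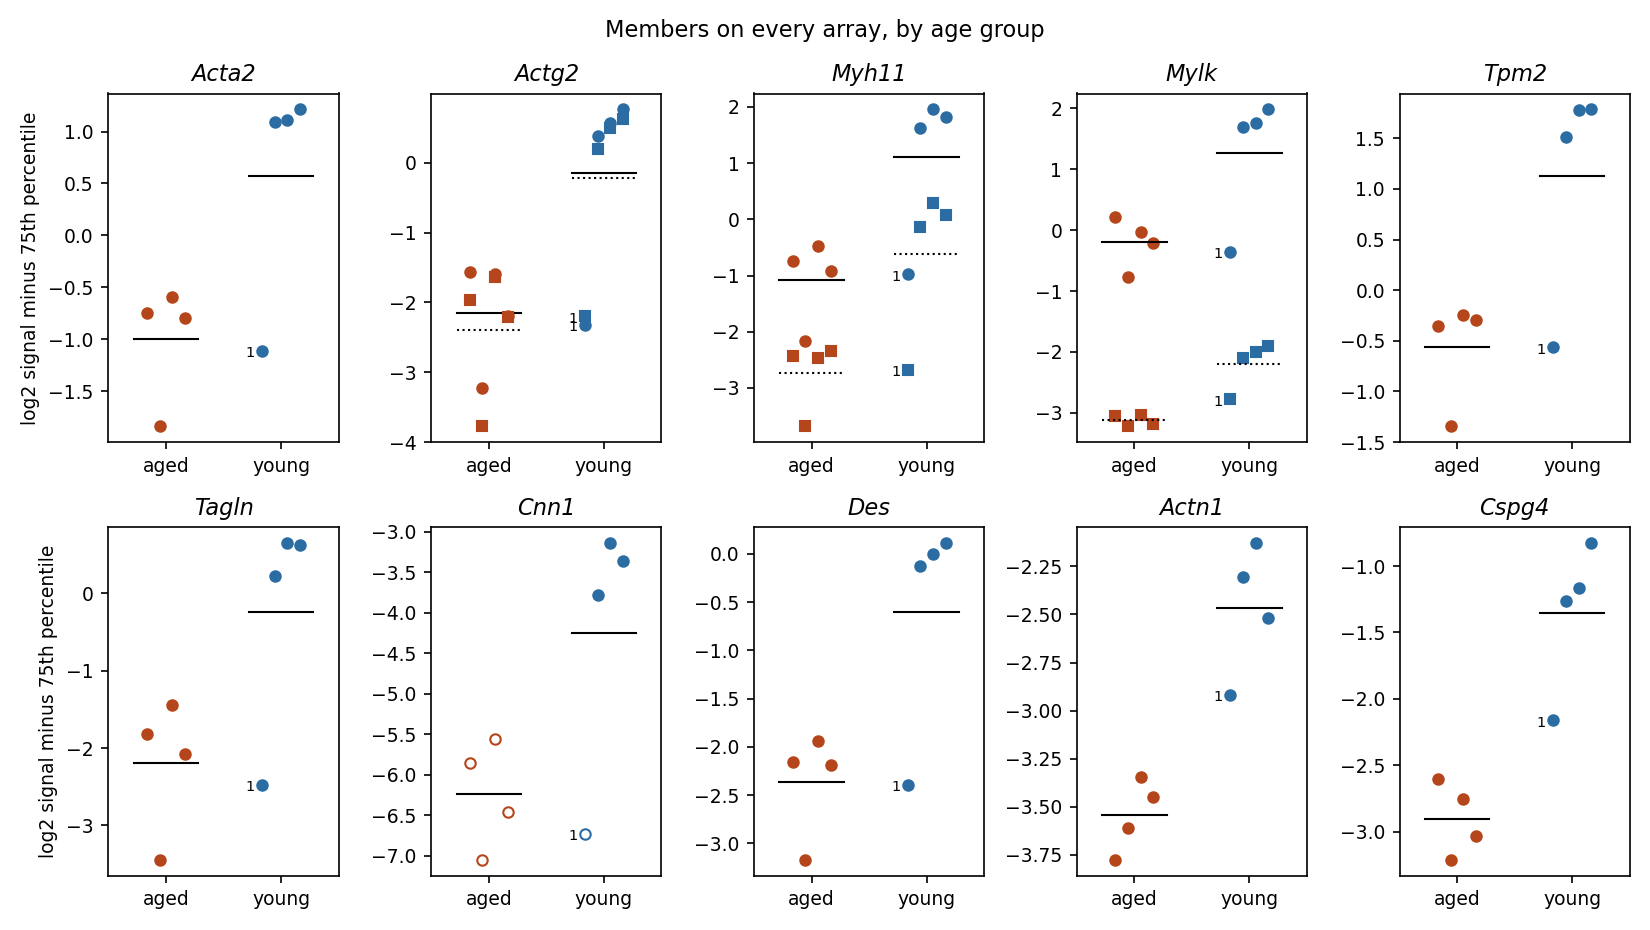
Level of each member on every array (vertical axis, log2 signal minus the 75th percentile of the array, scaled separately per gene), aged left and young right. Points are arrays, circles the brightest probe and squares a second probe, open symbols are not well above background, lines are group means (dotted for the second probe), and the digit 1 marks young replicate 1, which lies at −1.11 for Acta2 against 1.09 to 1.21 for the other young arrays.

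Acta2, smooth muscle alpha-actin, had values of −0.74, −1.84, −0.60 and −0.79 in aged replicates 1 to 4, against −1.11, 1.09, 1.11 and 1.21 in young replicates 1 to 4. Young replicates 2 to 4 were high and close together, and young replicate 1 lay among the aged arrays. The change was −1.57 ± 0.52 (SE, n = 4 per group, 95% confidence interval −2.74 to −0.40, adjusted p = 0.0944 in limma).

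Actg2, the gamma-actin of visceral smooth muscle, was measured by 2 probes. The brighter one had values of −1.57, −3.23, −1.59 and −2.20 in aged cells and of −2.32, 0.39, 0.56 and 0.77 in young cells, a change of −1.99 ± 0.67 (SE, adjusted p = 0.0990). The groups overlapped through young replicate 1 alone. The second probe differed by −2.18 ± 0.67, with the same layout of the arrays.

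Myh11, the myosin heavy chain that defines differentiated smooth muscle, showed the largest difference in value among the 9 tested members. Its levels were −0.75, −2.16, −0.47 and −0.92 in aged cells and −0.98, 1.62, 1.96 and 1.83 in young cells, a change of −2.18 ± 0.65 (SE, 95% confidence interval −3.64 to −0.72, adjusted p = 0.0802). This equals a level 4.54-fold lower in aged cells, and young replicate 1 again lay within the aged range. A second Myh11 probe differed by −2.12 ± 0.62.

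Mylk, the kinase that switches this myosin on, was the member whose probes differed most in size. The brighter probe had values of 0.22, −0.76, −0.03 and −0.21 in aged cells and of −0.36, 1.70, 1.76 and 1.99 in young cells (change −1.47 ± 0.48, SE, adjusted p = 0.0927). The second probe, listed under the same transcript accession, had values of −3.06, −3.22, −3.04 and −3.19 in aged cells and of −2.78, −2.10, −2.00 and −1.91 in young cells. Its groups did not overlap, since young replicate 1 lay above all aged arrays on this probe. Its change was −0.93 ± 0.19, with an adjusted p of 0.0550 in the limma fit over 11950 named probes. Mylk encodes several products, among them a long and a short kinase, and which of them each probe detects is not given in the sources used here.

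Tpm2, beta-tropomyosin, which lies along the actin filament, followed the same layout. It had values of −0.35, −1.34, −0.24 and −0.29 in aged cells and of −0.56, 1.51, 1.78 and 1.79 in young cells (change −1.68 ± 0.51, SE, adjusted p = 0.0848). Tagln, transgelin, an actin-binding protein of smooth muscle, had values of −1.81, −3.44, −1.44 and −2.08 in aged cells and of −2.48, 0.22, 0.65 and 0.63 in young cells. Its change of −1.95 ± 0.71 had the largest error and the highest adjusted p of the tested members (0.111). Des, desmin, the intermediate filament protein of muscle and of many pericytes, had values of −2.16, −3.17, −1.94 and −2.19 in aged cells and of −2.40, −0.12, 0.00 and 0.11 in young cells (change −1.77 ± 0.54, SE, adjusted p = 0.0848). In all 3 genes young replicate 1 lay among the aged arrays and aged replicate 2 was the lowest array of all.

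Cnn1, calponin, a brake on the myosin motor and a marker of mature smooth muscle, was not tested in the main fit. It was well above background on young replicates 2, 3 and 4 (−3.78, −3.13 and −3.35) and on no other array. The measured values below background were −5.86, −7.05, −5.56 and −6.45 in aged cells and −6.73 in young replicate 1. Its mean was −6.23 in aged and −4.25 in young cells as measured. The lowest signal well above background on each aged array, over all probes, had a mean of −5.06. The measured young mean of Cnn1 lay 1.75-fold above that level, with young replicate 1 itself below background. In the limma fit without the filter on dim probes, Cnn1 differed by −1.98 ± 0.75 (SE, adjusted p = 0.186).

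Cspg4 and Actn1 fell in the limma test. Cspg4, read by 10 spots per array, had values of −2.61, −3.21, −2.76 and −3.03 in aged cells and of −2.16, −1.27, −1.17 and −0.83 in young cells, and the groups did not overlap. The fall was 1.55 ± 0.27 on the log2 scale (SE, 95% confidence interval −2.16 to −0.94, adjusted p = 0.0465), or 2.92-fold. Actn1, the non-muscle alpha-actinin that ties actin filaments to each other and to adhesion sites, had values of −3.78, −3.61, −3.35 and −3.45 in aged cells and of −2.92, −2.31, −2.13 and −2.52 in young cells. These did not overlap either, and the fall was 1.08 ± 0.18 on the log2 scale (SE, 95% confidence interval −1.48 to −0.67, adjusted p = 0.0465), or 2.11-fold. Non-overlapping groups occurred in 14.3% of all genes tested, and in 4.12% with the aged group below.

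These 2 genes also differed from the other 7 in the place of young replicate 1. With the aged mean taken as 0% and the mean of young replicates 2 to 4 as 100%, young replicate 1 stood at 50.9% for Actn1 and 40.7% for Cspg4. It stood at −10.5% to 3.30% for the other 7 members in the probe used for the gene, and at 30.6% for the dimmer Mylk probe. Actn1 and Cspg4 were also the dimmest of the 9 tested members, with aged means of −3.54 and −2.90. The dimmer Mylk probe had an aged mean of −3.13. Whether signal level bears on the place of young replicate 1 was not tested. The size of the change did not follow the call: Actn1 had the smallest change of the 9 tested members. Each call was lost when any single array other than young replicate 1 was left out, with adjusted p-values of 0.0697 to 0.169 for Actn1 and 0.0731 to 0.169 for Cspg4 in limma. With background corrected by normexp before percentile scaling, the falls were 0.43 for Actn1 and 0.91 for Cspg4, both called. With normexp and quantile scaling the values were −0.38 for Actn1, which was not called, and −0.85 for Cspg4, which was.

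The number of members called lower is read against the share of all genes called lower at the same setting. It was 6 with spike-in scaling (10.4% of all genes), 3 with median scaling (2.57%), 3 with normexp and percentile scaling (2.62%) and 1 with normexp and quantile scaling (0.352%). It was 9 with array weights, which down-weight arrays by their fit (16.5%), and 8 at an adjusted p under 0.1 (7.11%). It was 2 with the authors' log2 values (0.156%), with outlier spots kept (0.166%), with probes above background on all arrays (0.144%), and with trend and robust variances (0.625%). It was 1 with the mean of a gene's probes (0.117%), and 0 with quantile scaling (0.0977%).

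Without young replicate 1 all 9 tested members were called lower, with limma adjusted p-values of 0.00301 to 0.00582, where 14.6% of all genes were called lower and 36.9% in either direction. The median change of the members was then −2.25. Myh11 changed by −2.88 ± 0.37, Actg2 by −2.72 ± 0.39, Tagln by −2.70 ± 0.43 and Acta2 by −2.13 ± 0.28 (SE). Young replicate 1 was the lowest young array for all 9 members, so that leaving it out widens every difference by construction. Since that array was singled out with its values known, these calls add no independent support for a difference with age.

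**Figure D2:**
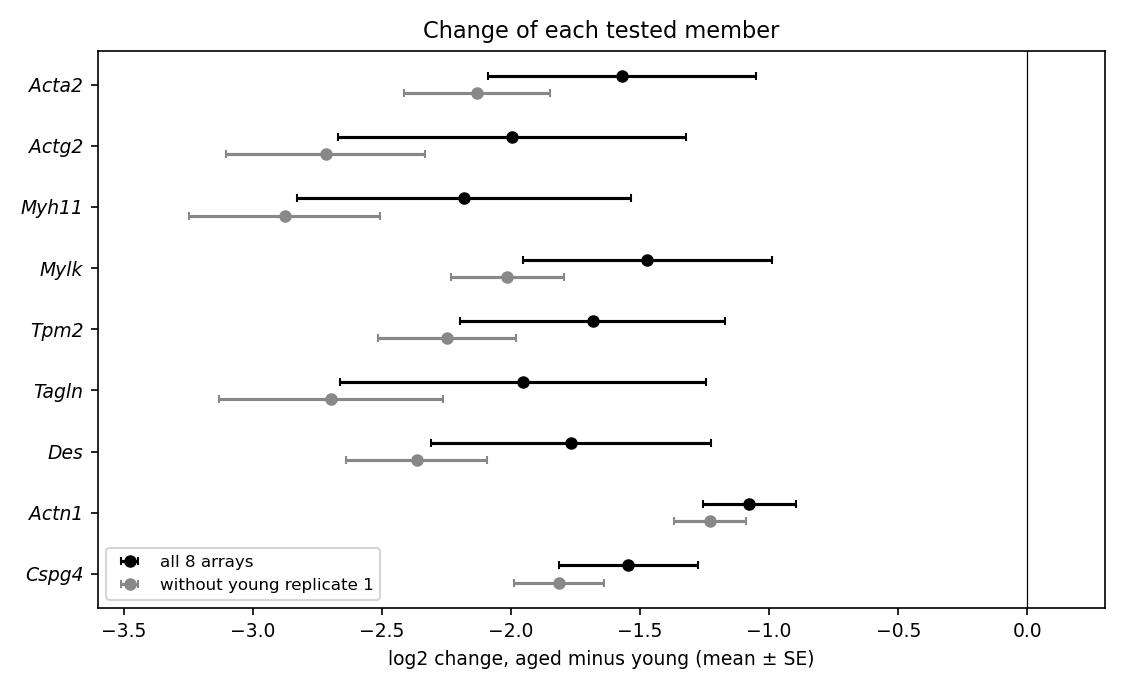
Log2 change of each tested member, aged minus young (horizontal axis, points with standard errors), with all 8 arrays in black and without young replicate 1 in grey. All points lie below 0; leaving out the array moves Myh11 to −2.88 and Actn1 only to −1.23.

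After subtraction of each gene's mean, the mean of the 9 members was −0.58, −1.60, −0.45 and −0.76 in aged replicates 1 to 4 and −0.77, 1.24, 1.43 and 1.48 in young replicates 1 to 4. The root mean square difference of a gene to this profile was 0.082 for Tpm2, 0.094 for Des, 0.095 for Acta2, 0.17 for Mylk, 0.33 for Actg2, 0.34 for Myh11 and 0.36 for Tagln, and 0.40 for Cspg4 and 0.66 for Actn1, the members that lay farthest from it. Within the aged group, aged replicate 2 was the lowest array for 8 of the 9 members, Actn1 excepted.

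The 8 genes outside the set with the smallest root mean square difference to this profile, among 10227 genes ranked, were Plat (0.10), Cep295nl (0.11), Prrx1 (0.12), Cpe (0.13), Slc25a41 (0.14), C1qtnf2 (0.14), Cavin3 (0.15) and Tpm1 (0.17). Plat encodes tissue plasminogen activator, Prrx1 a homeobox factor of mesenchyme, Cpe carboxypeptidase E, Cavin3 a coat protein of caveolae and Tpm1 another tropomyosin. Their changes ran from −1.75 to −1.45, with adjusted p-values of 0.0734 to 0.104 in limma, and none passed. They were picked by likeness on these same arrays, so the direction and size of their changes follow from the choice. Slc25a41 and C1qtnf2 were above background on 3 of 4 aged arrays.

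Other smooth muscle contractile and cytoskeletal genes had lower values as well, to a smaller extent. Of 22 listed genes 18 were tested, 14 of these had lower values and 4 higher ones, and 0 passed in either direction. Their changes ran from −1.92 to 0.25, with a median of −0.50 against 0.11 for all genes. The genes with the smallest p were Flna, a large actin crosslinker (−1.51 ± 0.37, adjusted p = 0.0611), and Itga8, an integrin of smooth muscle (−1.03 ± 0.28, adjusted p = 0.0723). Named after their values were seen, Myl9, the regulatory light chain that Mylk phosphorylates, differed by −1.79 ± 0.63 (adjusted p = 0.107) and Cald1, caldesmon, by −0.38 ± 0.15 (adjusted p = 0.132). Of 13 other pericyte genes 6 were tested and 5 had lower values (median −0.64), with 0 passing. The changes of these 6 ran from −1.35 to 0.02. Mcam, the adhesion molecule CD146, differed by −0.74 ± 0.20 (adjusted p = 0.0707), Cd248, endosialin, by −0.93 ± 0.31 (adjusted p = 0.0939) and the receptor Pdgfrb, named after its values were seen, by −0.54 ± 0.19 (adjusted p = 0.109). Angpt1 and Tbx18 were not well above background on any array.

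Transcription factors that act on these genes were examined next, and none of the 3 named here passed the test. Smooth muscle genes are switched on by serum response factor (Srf) with myocardin-family partners. Srf, named after its values were seen, differed by 0.09 ± 0.12 (adjusted p = 0.618), a value that turned to −0.36 with spike-in scaling and to −0.037 with normexp and quantile scaling. Klf4, a factor that represses smooth muscle genes, differed by −0.35 ± 0.13 (adjusted p = 0.120) and Elk4, a ternary complex partner of Srf, by 0.32 ± 0.14 (adjusted p = 0.149), or −0.13 with spike-in scaling. Of 15 hedgehog, PDGF and TGF-beta signals and receptors 9 were tested, with 6 lower in value, a median of −0.26 and 0 passing. Pdgfra, the PDGF receptor of stromal cells, differed by −0.95 ± 0.36 (adjusted p = 0.117) and Tgfbr1 by 0.37 ± 0.14 (adjusted p = 0.119), or −0.084 with spike-in scaling. Of 13 ligands, receptors and signalling genes of contraction 4 were tested, with 0 passing: 1 receptor, Ednra, and 3 genes that act downstream of receptors. The endothelin receptor Ednra differed by −0.90 ± 0.27 (adjusted p = 0.0802) and the phospholipase Plcb4 by 0.39 ± 0.13 (adjusted p = 0.0915), or −0.063 with spike-in scaling. The median of all genes was −0.35 with spike-in scaling, against 0.11 with percentile scaling.

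Each contractile member has relatives, many of them made in other muscle or in all cells, and these were compared within the same arrays. Of 20 such paralogs 15 were tested. Their median change was 0.01, a value of either sign across scalings, and 7 had lower values. Myh10, a non-muscle myosin heavy chain, rose by 0.85 ± 0.14 (SE, adjusted p = 0.0465), the only paralog called. It had values of −2.05, −2.30, −2.35 and −2.58 in aged cells and of −3.34, −2.96, −3.28 and −3.09 in young cells, and here young replicate 1 lay with the young arrays. The call was lost on leaving out any array other than young replicate 1 (adjusted p of 0.0693 to 0.169), and it was not called with spike-in scaling (0.39) or with normexp and percentile scaling (0.44).

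Within-array ratios of a member to its paralog, which a constant shift of an array leaves as they are, were compared over 9 pairs chosen after the values were seen. The log2 ratio was lower in aged cells for all 9 pairs in mean, by 0.16 for Des over Vim to 3.03 for Myh11 over Myh10. The groups did not overlap for Myh11 over Myh10 and for Actn1 over Actn4 (change −1.09). Both gave an exact two-sided permutation p of 0.0286, the smallest that 4 against 4 arrays can give, and an adjusted p of 0.129 over the 9 pairs. Myh10 and Actn1 had groups that did not overlap on their own, while the groups of Myh11 overlapped. For Acta2 over Actb (−1.46), Actg2 over Actg1 (−2.02), Myh11 over Myh9 (−2.26), Tagln over Tagln2 (−1.17) and Tpm2 over Tpm4 (−1.76) the exact p was 0.114, and for Mylk over Mylk2 (−1.52) it was 0.143. In these 6 pairs young replicate 1 did not lie above the aged arrays. It lay below all of them for Mylk over Mylk2 and within their range for the others. None of the 9 passed. Mylk2 was dim, with means of −4.51 in aged and −4.56 in young cells. The lowest signals well above background lay at −5.64 to −4.69 over the arrays. With the dimmer Mylk probe the ratio of Mylk to Mylk2 differed by −0.98. Settings that are no constant shift moved the ratios: that of Actn1 to Actn4 was −0.86 with quantile scaling, −0.42 with normexp and percentile scaling and −0.31 with normexp and quantile scaling, and that of Des to Vim was 0.01 without aged replicate 1.

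Vim and Tagln2 were the paralogs with the lowest values in aged relative to young cells among those paired. Vim, vimentin, the intermediate filament of mesenchymal cells, differed by −1.61 ± 0.75 (adjusted p = 0.175), close to Des, and the ratio of Des to Vim differed by −0.16 (exact permutation p = 0.629). Tagln2 differed by −0.78 ± 0.27 (adjusted p = 0.104). The non-muscle genes Actb (−0.11 ± 0.14), Myh9 (0.08 ± 0.14) and Actn4 (0.01 ± 0.10) had 95% confidence intervals of −0.43 to 0.20, −0.23 to 0.39 and −0.21 to 0.23 (limma adjusted p = 0.596, 0.715 and 0.947), all named after their values were seen. The sign of these 3 changed with the scaling, Actb to 0.042 with median scaling, and Myh9 to −0.38 and Actn4 to −0.44 with spike-in scaling.

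**Figure D3:**
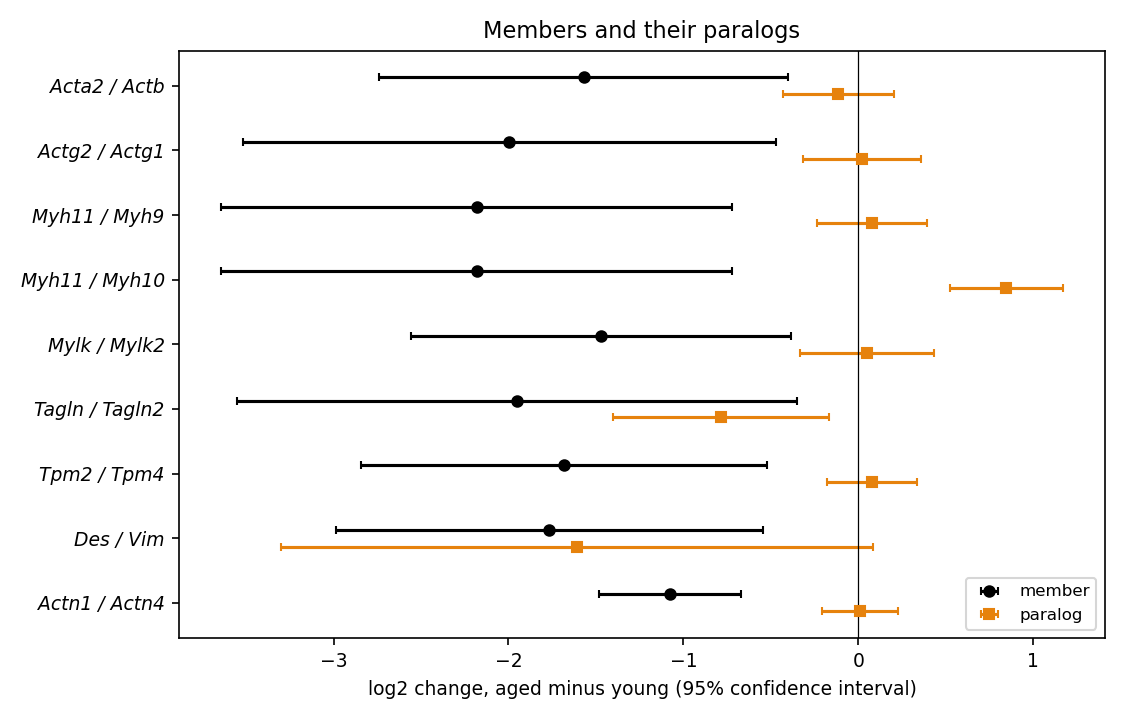
Log2 change, aged minus young (horizontal axis, with 95% confidence intervals from limma), of the paired members (black circles) and their paralogs (orange squares). Cspg4 and Cnn1 were in no pair and are not shown. Of the paralogs shown, 6 lie close to 0, Myh10 lies at 0.85, and Tagln2 (−0.78) and Vim (−1.61) lie below 0.

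Markers of other cells also differed over the same arrays, and their part in the result was not tested. Among fibroblast and stromal markers 7 of 10 were tested and 6 had lower values (median −0.90), with 0 passing and Lum and Thy1 below background on all arrays. Their summed level, in units of the 75th percentile signal, was 2.46 to 5.31 on the aged arrays, 3.57 on young replicate 1 and 9.50 to 10.8 on young replicates 2 to 4. Without Mgp, the brightest gene of that list, the aged arrays had 1.27 to 2.28, young replicate 1 had 1.91 and young replicates 2 to 4 had 4.13 to 4.30. The sum of the 9 members was 1.99 to 4.42 on the aged arrays, 3.35 on young replicate 1 and 15.3 to 18.3 on young replicates 2 to 4. Col1a1 (−0.90 ± 0.18, adjusted p = 0.0542) and Col3a1 (−1.87 ± 0.42, adjusted p = 0.0561), collagens of fibrous matrix, led the stromal list, and Col3a1 was above background on 2 of 4 aged arrays.

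Macrophage markers had lower values in 8 of 8 tested genes of 10 (median −0.76), with sums of 3.96 to 12.1 on the aged arrays, 6.38 on young replicate 1 and 17.8 to 21.0 on young replicates 2 to 4. Aif1 made up 51.4% to 82.3% of that sum, and for the other 7 markers the sums overlapped, with 1.11 to 5.90 on the aged arrays, 2.03 on young replicate 1 and 3.73 to 6.52 on young replicates 2 to 4. Adgre1, a surface receptor of macrophages that was above background on 3 of 4 aged arrays, differed by −1.97 ± 0.44 (adjusted p = 0.0561) and Aif1 by −1.25 ± 0.42 (adjusted p = 0.0964). Spermatid markers had lower values in 12 of 12 (median −0.76), with sums of 245 to 494 on the aged arrays, 334 on young replicate 1 and 613 to 818 on young replicates 2 to 4. Acr, an acrosomal protease, differed by −1.10 ± 0.22 (adjusted p = 0.0531) and Tekt2, a flagellar protein, by −1.97 ± 0.45 (adjusted p = 0.0561). In both lists 0 genes passed, and young replicate 1 lay within the aged range of the sums, as it did for the members.

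Of 10 endothelial markers 5 were tested and 3 had lower values (median −0.11), with sums of 1.23 to 1.41 in aged cells and 1.35 to 1.49 in young cells, and Tek was below background on all arrays. Kdr differed by −1.02 ± 0.32 (adjusted p = 0.0871) and Eng by −0.71 ± 0.27 (adjusted p = 0.119). These had the smallest p of the list and were both lower, while 2 of the 5 tested markers had higher values. Of 9 Leydig cell markers 6 were tested and 4 had lower values (median −0.20, sums of 0.927 to 1.99 in aged and 1.09 to 2.46 in young cells), with Lhcgr below background on all arrays. Hsd11b1 (−0.98 ± 0.58, adjusted p = 0.269) and Cyp17a1 (−0.29 ± 0.24, adjusted p = 0.416) had the smallest p. Of 12 Sertoli cell markers 4 were tested and 3 had higher values (median 0.41, sums of 5.50 to 12.7 in aged and 3.73 to 9.03 in young cells), with Gdnf below background on all arrays. Clu made up 70.5% to 89.7% of the Sertoli sum and Insl3 59.0% to 71.8% of the Leydig sum. The X-linked homeobox gene Rhox5 rose by 0.82 ± 0.13 (adjusted p = 0.0465).

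Spermatocyte markers had higher values in 11 of 11 tested genes of 12 (median 0.84), with sums of 33.9 to 46.8 in aged and 17.8 to 25.6 in young cells, and 6 of them rose, where 0.498% of all genes were called higher. Meiob (1.19 ± 0.17), Syce1 (0.72 ± 0.11), Msh4 (1.11 ± 0.18) and Spata22 (1.43 ± 0.23), genes of meiotic recombination and synapsis, had an adjusted p of 0.0465 each in limma. Without young replicate 1 all 11 spermatocyte markers were called higher, as were 22.3% of all genes, and without any other single array 0 were, as was the case for Rhox5, which was called without young replicate 1 alone among these fits. Markers of undifferentiated spermatogonia had lower values in 10 of 12 tested genes of 14 (median −0.19, sums of 75.1 to 83.4 in aged and 66.8 to 93.6 in young cells) with 0 passing. Uchl1, at 0.13 not among the lower ones, made up 79.6% to 84.0% of that sum, and the other 11 markers summed to 13.3 to 13.9 in aged and 13.7 to 17.4 in young cells. Epcam differed by 0.46 ± 0.11 (adjusted p = 0.0561) and Gfra1 by −0.89 ± 0.25 (adjusted p = 0.0742).

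**Figure D4:**
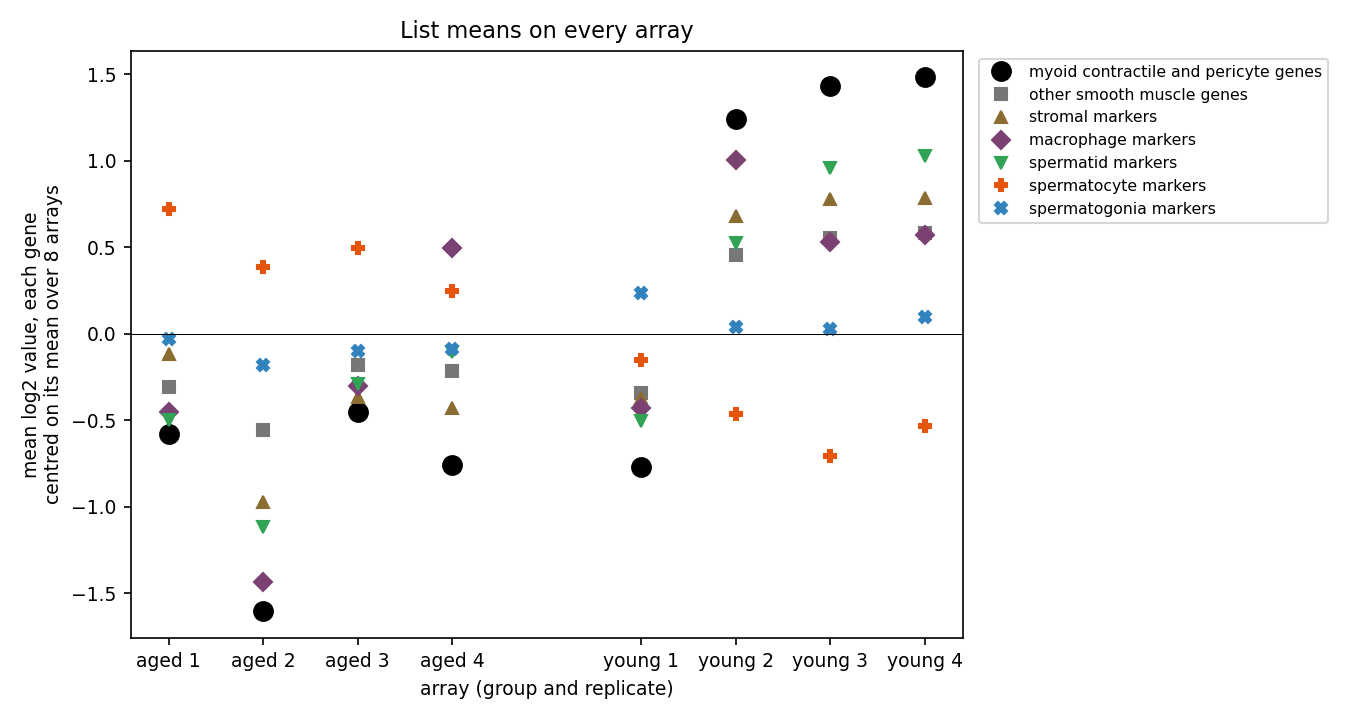
Mean log2 value of 7 gene lists on each array (vertical axis, after subtraction of each gene's own mean), aged arrays left and young arrays right. The members (black circles) lie at −0.77 on young replicate 1 and at 1.24 to 1.48 on young replicates 2 to 4, and the stromal, macrophage and spermatid markers are also lower on young replicate 1 than on young replicates 2 to 4.

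The promoters of the members were searched for the CArG box, the motif bound by serum response factor, whose match reads the same on either strand. RefSeq promoter windows of assembly GRCr8, each of 300 bases, were matched for 8 of the 10 members, all but Myh11 and Tagln. The strict CArG box was present in 0 of the 8 windows, against 1.64% of 27457 promoters. A CArG-like box with a single G or C in its core, searched after the sequences were seen, was present in 1 of 8, against 7.95% of all promoters. That member was Acta2, with 2 such boxes, whose first bases lie 134 and 84 bases before the start of transcription. The windows of Acta2, which holds these boxes, and of Cspg4 and Actn1, the 2 members that passed the test, are shown 5′ to 3′ on the strand of the gene, with CArG-like boxes in capitals. The windows lie at chr1:241172454-241172753 (minus strand) for Acta2, chr8:66160692-66160991 (plus strand) for Cspg4 and chr6:104826123-104826422 (minus strand) for Actn1. A match is a description of these letters only, and its absence says nothing beyond this window.
Acta2: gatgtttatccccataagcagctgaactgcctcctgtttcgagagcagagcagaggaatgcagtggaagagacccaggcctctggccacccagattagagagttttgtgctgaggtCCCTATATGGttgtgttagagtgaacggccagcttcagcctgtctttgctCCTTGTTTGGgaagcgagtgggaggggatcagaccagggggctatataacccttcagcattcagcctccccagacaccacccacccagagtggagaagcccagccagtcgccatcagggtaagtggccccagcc
Cspg4: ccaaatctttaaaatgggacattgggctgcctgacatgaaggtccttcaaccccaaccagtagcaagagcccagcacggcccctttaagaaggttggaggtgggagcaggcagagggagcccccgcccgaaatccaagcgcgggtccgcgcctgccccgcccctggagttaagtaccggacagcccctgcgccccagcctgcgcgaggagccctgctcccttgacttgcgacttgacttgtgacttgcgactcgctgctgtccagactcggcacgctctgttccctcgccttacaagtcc
Actn1: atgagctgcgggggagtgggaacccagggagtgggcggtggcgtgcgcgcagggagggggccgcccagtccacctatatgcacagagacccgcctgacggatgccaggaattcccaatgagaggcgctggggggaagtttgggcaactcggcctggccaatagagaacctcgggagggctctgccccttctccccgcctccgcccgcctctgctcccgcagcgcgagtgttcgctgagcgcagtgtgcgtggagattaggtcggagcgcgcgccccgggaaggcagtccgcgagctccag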

How the data were processed

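RNA of CD9-positive rat testis cells was measured on 8 1-colour arrays, grouped by the age in the labels. The deposited processed signal is an intensity with background and spatial trend removed by Feature Extraction 10.7.3.1, per the file headers (the submitters' processing notes name version 12.5), for probes designed on rn4. For normexp, the deposited medians of each spot and of its surroundings were used, both an unprocessed intensity. Flags of the other kind (0 or 1 per spot) were used as deposited. The authors' series table holds log2 values of 30505 probes centred on their medians. Its array differences equalled those of the percentile-scaled scanner signals to within 0.0040, which settled its scale, scaling and direction. Its column medians were −0.02, 0.05, 0.07 and −0.0029 for aged replicates 1 to 4 and 0.09, −0.07, −0.14 and −0.06 for young replicates 1 to 4.

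Control and outlier spots were left out, log2 signals averaged per probe, and the 75th percentile of non-control probes subtracted. Probes kept had at least 0.5 of their spots well above background on all arrays of 1 group. Of 30367 probes 17998 were named through the RefSeq table of GRCr8 (names only), and 11950 of these were kept. The probe with the highest mean stood for a gene. Limma 3.58.1 in R 4.3.3 (lmFit and eBayes, two-sided, 9.15 degrees of freedom) was fitted over all genes, and adjusted p-values are its own unless an exact test is named. The fit was tested on simulated data. Alternatives covered scaling, normexp (offset 50), filters, probe choice, variance models, the replicate number as a block and each array left out. The members and lists were chosen with earlier results of these data known. Named were all members, up to 4 called genes of each other list or else the 2 with the smallest p, and the 8 genes most like the members. Others are said to be named after their values were seen. The count for 1 list of regulators is not reported here.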

Additional observations from a re-analysis of the deposited data

Results flagged for a closer look

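In 12 of 26 groups of 4 values (13 probes, 2 ages) the lowest array stood farther from the rest than Dixon's 95% critical value allows. Chance flags about 1 in 20 such groups, and the probes share the same arrays, so the 12 are not independent. In 9 of them the array was young replicate 1. Its values were −1.11 for Acta2 (other young arrays 1.09 to 1.21), −2.32 and −2.20 for the Actg2 probes, −2.40 for Des, −0.98 and −2.68 for the Myh11 probes, −0.36 for the brighter Mylk probe, −2.48 for Tagln and −0.56 for Tpm2 (log2 signal minus the 75th percentile). In the other 3 it was aged replicate 2, with −1.84 for Acta2, −3.68 for the dimmer Myh11 probe and −1.34 for Tpm2. No value of Actn1, Cspg4 or Cnn1 was set apart by this criterion.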

How the results depend on the processing

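All 9 tested members had lower values in aged cells under all 25 alternatives, with a median between −2.25 and −1.33, and the number of members called moved from 0 to 9. The 2 calls, Cspg4 and Actn1, were each made in 13 of 26 settings. Members called numbered 0 with quantile scaling, no scaling, no filter on dim probes and unnamed probes tested too, although 9 (10 without the filter) had an unadjusted p under 0.05 in each, 1 with the mean of a gene's probes and with normexp and quantile scaling, 6 with spike-in scaling, 9 with array weights and 8 at a threshold of 0.1. Without single arrays they ranged from 0 to 9, the 9 being without young replicate 1 and the 0 without each of the other 7 (8 or 9 at an unadjusted p under 0.05). Of the 10236 genes tested, 1951 to 3009 had an unadjusted p under 0.05 without each of those 7, and 3206 with quantile scaling. Over all genes, 67 were called (16 lower, 51 higher). The count was 1330 with median scaling (263 lower, 1067 higher), 1067 with spike-in scaling (1061 lower, 6 higher), 633 with normexp and percentile scaling (268 lower, 365 higher), 259 with normexp and quantile scaling (36 lower, 223 higher), 270 with trend and robust variances, 4616 with array weights and 1674 at a threshold of 0.1. It was 0 with no scaling, no filter or unnamed probes (1389, 3339 and 4929 at an unadjusted p under 0.05), and 0 to 3776 without single arrays. With the replicate number as a block, 0 members and 0 genes were called (9 and 3231 at an unadjusted p under 0.05). Whether the replicate numbers pair the samples was not settled. Deviations of same-numbered arrays correlated across genes at −0.26, −0.12, 0.44 and 0.35. Deviations within a group are tied to each other, so these values cannot decide it. The only changes of sign among single genes were in Elk4, Tgfbr1, Plcb4, Srf, Myh9 and Actb (Elk4 −0.13, Tgfbr1 −0.084, Plcb4 −0.063, Srf −0.36 and Myh9 −0.38 with spike-in scaling, Srf −0.037 with normexp and quantile scaling, Actb 0.042 with median scaling) and in Actn4, which was −0.062 with quantile, −0.020 with no and −0.44 with spike-in scaling, −0.013 and −0.071 with normexp and percentile or quantile scaling, and −0.0110 to 0.0485 without single arrays (−0.0074, −0.0061, −0.0110 and −0.0077 without young replicates 1 and 3 and aged replicates 2 and 3). The cause of these shifts was not tested. With 4 arrays per group, their number limits the precision, and Cnn1 and the aged values of dim probes lie near background.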
